A study of Mus musculus with 4 samples.

Results

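A list of 43 genes of DNA replication and nucleotide synthesis was read in cultured mouse keratinocytes, the main cells of the epidermis, which differed in a Cre recombinase and in the drug that switches it on. The genes were taken from a fixed list of names, and each was represented by the probe set (the group of array probes that reads a transcript) that had the highest mean of those assigned to it and to no other gene. Earlier results of these data were known when this list and the other gene lists below were drawn up. Of the 43 genes, 41 had such a probe set and 2, Gins2 and Chaf1a, did not. A level filter then kept genes that were at or above an intensity of 20.04, the median of the table, on at least 1 array, and 38 of the 41 genes passed it, among 7463 of 12393 named genes in all. The 3 genes under the filter were Orc1, Cdc6 and Tyms.

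The cells were primary cultured keratinocytes from the tail skin of C57BL/6 congenic mice, and all of them carried a floxed Prdm1 gene, the gene of the transcriptional repressor Blimp-1. The control cells had no CreER, and the CKO cells had CreER, a Cre recombinase that becomes active when 4-hydroxytamoxifen (4OHT) binds it. Between day 1 and day 3 of culture the medium held 4OHT or ethanol (EtOH), its solvent, and the cells were harvested on day 5, so that there were 4 groups of 1 array each: CKO 4OHT, CKO EtOH, control 4OHT and control EtOH. With 1 array in a group there was no replicate, no error could be estimated and no difference was tested. The mice behind control and CKO cells differed, so genotype and animal cannot be told apart; the promoter that drives CreER and the number of mice per culture were not given in the sources used here. Levels below are RMA intensities on a linear scale, a normalized brightness of the probe set, and differences are log2 ratios of intensities. Values on the 4 arrays stand in the order control with EtOH, control with 4OHT, CKO with EtOH and CKO with 4OHT unless stated otherwise. A gene is counted as higher or lower in a comparison when its intensities differed at least 1.5-fold.

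The arrays were checked against the labels. Prdm1 itself had intensities of 20.7, 52.4, 17.0 and 6.43, with the lowest value in CKO 4OHT. Which part of the gene was floxed was not given in the sources used here, so whether the probe set lies inside it is unknown. Of 12 keratinocyte markers 11 were on the array and passed the level filter, and their summed intensity was between 16673 and 17389 on the 4 arrays. Most of that sum is Krt14 and Krt5, keratins of the basal layer, which were within 1.5-fold in all 4 comparisons. Among the dimmer markers, 3 were not. Itga6, an integrin subunit of basal cells, had intensities of 613, 388, 442 and 501, in the order that most replication genes had. Its partner Itgb4 had 391, 315, 316 and 551, highest in CKO 4OHT, and Epcam, an adhesion molecule, had 164, 245, 161 and 325. The part of these markers' cells in the results below was not tested. Markers of other cells were dim: 1 of 11 fibroblast, 2 of 10 immune and 0 of 6 endothelial markers passed the filter, and none of these 3 sums differed by more than 1.5-fold between arrays. Of 7 melanocyte markers on the array 4 passed. The sum of all 7 was between 127 and 155 and highest in CKO 4OHT, and their part was not tested either.

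DNA replication starts at origins that are licensed when the origin recognition complex, Cdc6 and Cdt1 load the MCM helicase, which Cdc45 and the GINS complex then turn into an active motor. Polymerases, a primase, the sliding clamp PCNA with its loader and the single-strand binding protein RPA copy the DNA, and thymidine kinase, ribonucleotide reductase and related enzymes supply the nucleotides. Most of these genes are transcribed as cells enter S phase, under E2F transcription factors that the retinoblastoma protein restrains, and in the epidermis they are known from the dividing basal layer. In a culture, fewer cells in S phase and less of each transcript per cell cannot be told apart from these arrays.

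The replication genes shared an order across the 4 arrays. In 34 of the 38 genes control EtOH was above CKO EtOH, CKO EtOH was above control 4OHT, and CKO 4OHT was above control 4OHT as well. The same order held in 21.6% of all 7463 genes. Control 4OHT was the lowest of the 4 arrays for 34 genes (30.8% of all genes) and control EtOH the highest for 29 (29.4% of all genes). CKO 4OHT was the highest for the 9 others (31.6% of all genes), which were Orc2, Orc6, Mcm3, Pola2, Rpa2, Fen1, Tk1, Rrm2 and Dut. The 4 genes that broke the order at the bottom were Mcm2, Rfc5 and Rrm1, lowest in CKO 4OHT (31.1% of all genes), and Pold1, lowest in CKO EtOH (17.5%). For Mcm2 the margin was between 81.4 in control 4OHT and 81.2 in CKO 4OHT. The other measured probe sets of Mcm2 (76.1, 45.1, 60.3 and 56.9) and of Pold1 (84.7, 50.4, 52.2 and 55.8) were lowest in control 4OHT and kept the order. Those of Rpa2 and Orc2 were highest in CKO EtOH and not in CKO 4OHT, and so did not keep it.

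**Figure D1:**
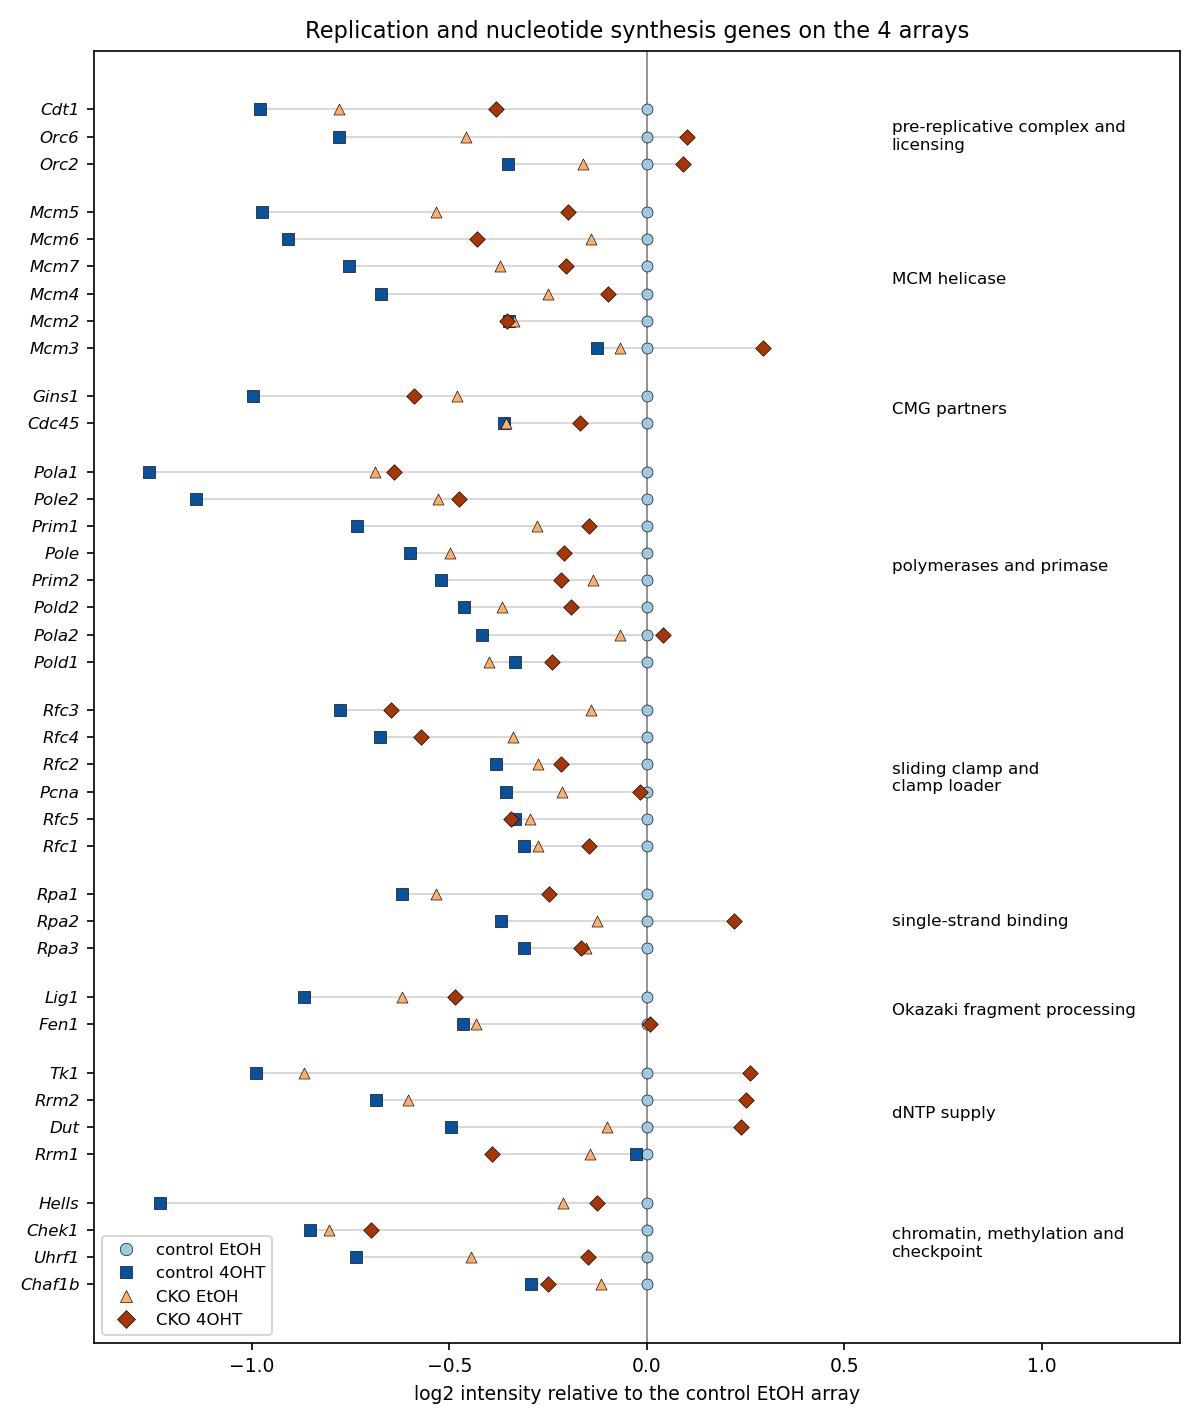
Log2 intensity of the 38 replication and nucleotide synthesis genes past the level filter, relative to the control EtOH array (x axis), with genes in rows by role and 1 point per array. Control 4OHT is the leftmost point for 34 genes, and CKO 4OHT lies to the right of control EtOH for 9.

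The stretches of DNA before the start sites of several of these genes are shown because these genes shared an order across the arrays and because E2F sites are known from such promoters. Promoter windows of RefSeq (build GRCm38.p6, 250 bases before and 50 after a start site) were found for 37 of the 43 genes. The 250 bases before the start follow for Pola1, Hells, Mcm5 and Mcm6. These 4 genes were at least 1.5-fold lower in control 4OHT than in control EtOH and hold an E2F motif in those bases. Mcm7 met both conditions as well and is not shown. The same bases follow for Tk1 and Rrm2, the genes furthest above CKO EtOH in CKO 4OHT. Capitals mark the E2F motif (TTTCCCGC or TTTGGCGC, or on the other strand GCGGGAAA or GCGCCAAA) and the CCAAT box (CCAAT or ATTGG). The windows are chrX:93632156-93632405 (minus strand) for Pola1, chr19:38930740-38930989 (plus) for Hells, chr8:75109259-75109508 (plus) for Mcm5, chr1:128359706-128359955 (minus) for Mcm6, chr11:117826015-117826264 (minus) for Tk1 and chr12:24708004-24708253 (plus) for Rrm2.
Pola1: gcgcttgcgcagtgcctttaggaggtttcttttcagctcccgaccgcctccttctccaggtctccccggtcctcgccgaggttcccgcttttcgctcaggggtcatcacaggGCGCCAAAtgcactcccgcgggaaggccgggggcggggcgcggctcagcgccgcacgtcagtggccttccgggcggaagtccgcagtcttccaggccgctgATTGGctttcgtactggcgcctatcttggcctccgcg
Hells: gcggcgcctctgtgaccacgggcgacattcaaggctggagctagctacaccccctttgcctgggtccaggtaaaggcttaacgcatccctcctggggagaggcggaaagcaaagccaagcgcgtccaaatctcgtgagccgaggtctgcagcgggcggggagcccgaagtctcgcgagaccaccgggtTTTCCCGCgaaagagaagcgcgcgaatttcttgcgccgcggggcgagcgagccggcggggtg
Mcm5: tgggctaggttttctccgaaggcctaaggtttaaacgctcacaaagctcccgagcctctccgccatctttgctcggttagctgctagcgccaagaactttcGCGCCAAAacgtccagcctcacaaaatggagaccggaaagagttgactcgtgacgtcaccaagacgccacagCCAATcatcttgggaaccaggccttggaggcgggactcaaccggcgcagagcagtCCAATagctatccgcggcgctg
Mcm6: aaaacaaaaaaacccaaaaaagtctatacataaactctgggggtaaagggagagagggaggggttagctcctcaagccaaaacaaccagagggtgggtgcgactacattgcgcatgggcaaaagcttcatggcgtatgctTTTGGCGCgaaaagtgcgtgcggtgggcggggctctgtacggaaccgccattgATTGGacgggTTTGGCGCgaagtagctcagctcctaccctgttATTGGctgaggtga
Tk1: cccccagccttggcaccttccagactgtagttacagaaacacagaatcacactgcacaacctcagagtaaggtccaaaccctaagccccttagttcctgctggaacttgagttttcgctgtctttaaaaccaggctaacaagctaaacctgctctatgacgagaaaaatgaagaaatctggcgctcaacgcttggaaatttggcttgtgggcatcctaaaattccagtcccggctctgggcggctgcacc
Rrm2: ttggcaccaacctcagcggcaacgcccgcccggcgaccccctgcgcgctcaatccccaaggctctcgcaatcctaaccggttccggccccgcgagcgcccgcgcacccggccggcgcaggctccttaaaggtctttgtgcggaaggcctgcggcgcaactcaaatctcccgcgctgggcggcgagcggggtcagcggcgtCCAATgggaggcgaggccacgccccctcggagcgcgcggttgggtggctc

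The E2F motif began 138 bases before the start of Pola1, 62 before that of Hells, 149 before that of Mcm5, and at 110 and 47 before that of Mcm6, where it occurs at 2 places. Over all 300 bases of the windows, 11 of 37 genes (29.7%) held either form of the motif. The share was 3.89% of the 6097 genes past the level filter that had a window, and 1.80% of all 27025 genes in the promoter table. The 11 genes were Cdc6, Cdt1, Mcm3, Mcm5, Mcm6, Mcm7, Pola1, Pold1, Pole2, Rfc3 and Hells. The CCAAT box was in 22 of 37 (59.5%), against 43.0% of the genes past the filter. None of 27 mitosis genes with a window held the E2F motif, whereas 22 of the 27 held a CCAAT box. The windows of Tk1 and Rrm2 held no E2F motif in these letters. Such matches are letters and not sites of binding, and the 2 motifs do not overlap in the sequences shown.

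The first comparison set control 4OHT against control EtOH and so asked what accompanied the drug in cells without CreER. All 38 genes past the filter were lower in control 4OHT, by a median of -0.61 on the log2 scale, against a median of -0.04 over all genes, of which 56.6% were lower by any amount. Of the 38, 20 were at least 1.5-fold lower and 0 were higher, where 3.91% of all genes were lower and 3.95% higher by that fold. The largest differences were those of Pola1 (-1.26), Hells (-1.23) and Pole2 (-1.14), the 3 genes past 2-fold (0.241% of all genes). The smallest were Rrm1 (-0.03), Mcm3 (-0.13) and Chaf1b (-0.29).

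The second comparison set CKO EtOH against control EtOH, cells with and without CreER that had seen no drug. All 38 genes were again lower, by a median of -0.34 against -0.03 over all genes, of which 56.2% were lower by any amount. Past 1.5-fold, 6 genes were lower (0.777% of all genes): Tk1 (-0.87), Chek1 (-0.81), Cdt1 (-0.78), Pola1 (-0.69), Lig1 (-0.62) and Rrm2 (-0.61). Without probe sets that allow cross-hybridisation, Rrm2 was at -0.19 and Chek1 changed sign (0.047, from a dim probe set). With the mean of all probe sets, Rrm2 (-0.40), Chek1 (-0.31) and Cdt1 (-0.48) were under 1.5-fold, and with median centring Rrm2 (-0.57) and Lig1 (-0.58) were. The count was 3 with the mean of all probe sets of a gene, 4 with the arrays median-centred, 2 with a pseudocount of 16 and 0 at 2-fold, as for all genes (0%). None of the 38 was at least 1.5-fold higher (0.59% of all genes). Both comparisons use the control EtOH array, so a high value there enters both. Most of the other replication genes and mitosis genes read below were also lower by any amount in this second comparison.

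The third comparison set CKO 4OHT against CKO EtOH, inducer against solvent in cells with CreER. Here the genes did not share a direction. By any amount 28 were higher and 10 lower, with a median of 0.14 against 0.01 over all genes. Of the 38, 2 passed 1.5-fold, Tk1 (1.13) and Rrm2 (0.86), and 5.71% of all genes were higher by that fold, so the count was near the background. Of all genes 51.3% were higher by any amount, and 1.82% were at least 2-fold higher, as Tk1 was. None was at least 1.5-fold lower (5.48% of all genes), and the lowest were Rfc3 (-0.51) and Mcm6 (-0.29). For Mcm6 the direction was shared by its other probe set (-0.70), which allows cross-hybridisation.

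The fourth comparison set CKO 4OHT against control 4OHT, with the drug on both sides. Of the 38 genes, 35 were higher and 3 lower by any amount, with a median of 0.41 against 0.01 over all genes, of which 52% were higher by any amount. Among them 12 were at least 1.5-fold higher (6.69% of all genes): Tk1 (1.25), Hells (1.11), Rrm2 (0.94), Orc6 (0.88), Mcm5 (0.78), Dut (0.74), Pole2 (0.67), Pola1 (0.62), Cdt1 (0.60), Rpa2 (0.59), Uhrf1 (0.59) and Prim1 (0.59). The last 4 lay just past the threshold, Dut was at 0.40 with the mean of all probe sets, and the count was 7 with the arrays median-centred, 8 after quantile normalization and 5 with a pseudocount of 16. Past 2-fold there were 2, Tk1 and Hells (1.46% of all genes). None was at least 1.5-fold lower (6.07% of all genes), and the lowest was Rrm1 (-0.37). The comparison with CKO EtOH and that with control 4OHT share the CKO 4OHT array, and the first comparison shares control 4OHT with the latter.

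The difference between the drug's difference in CKO cells and in control cells uses all 4 arrays. It was above 0 for 37 of 38 genes, Rrm1 (-0.22) being the exception, with a median of 0.77 against 0.04 over all genes, of which 54.7% were above 0. In this direction 23 genes passed 1.5-fold and 0 in the other, against 11.2% and 8.54% of all genes, and 10 passed 2-fold (2.79% of all genes). Tk1 (2.12), Rrm2 (1.54), Cdt1 (1.38), Orc6 (1.34), Hells (1.32), Mcm5 (1.31) and Pola1 (1.31) were the furthest. For 28 of 38 genes the drug's difference was below 0 in control cells and above 0 in CKO cells, an arrangement found in 28.4% of all genes.

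**Figure D2:**
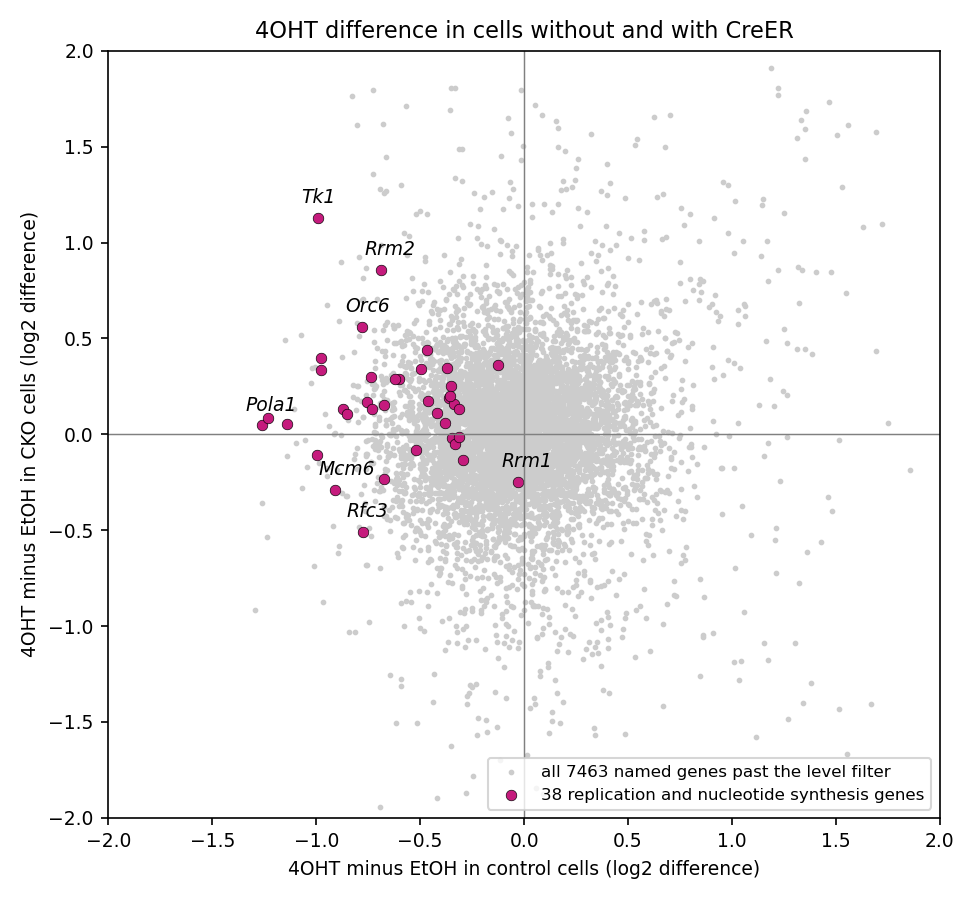
Log2 difference of 4OHT minus EtOH in control cells (x axis) and in CKO cells (y axis) for the 7463 named genes past the level filter (grey) and the 38 replication and nucleotide synthesis genes (magenta), with 35 grey genes outside the axes. All 38 lie left of 0, between -1.26 and -0.03, and spread on both sides of 0 in CKO cells, with Tk1 and Rrm2 at the top.

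The 3 licensing genes past the filter were lowest in control 4OHT. Orc6, a subunit of the origin recognition complex, had intensities of 88.1, 51.3, 64.2 and 94.6. Cdt1, which loads the MCM helicase, had 261, 132, 152 and 200. Orc6 in CKO 4OHT was thus close to control EtOH. By this probe set Cdt1 in CKO 4OHT was below control EtOH, whereas a second one had 97.4, 66.7, 79.8 and 106, with CKO 4OHT highest. The second probe set differed by -0.55 between control 4OHT and control EtOH, against -0.98 for the probe set used. Orc2, another subunit of that complex, stayed within 1.5-fold in all 4 comparisons (66.7, 52.3, 59.7 and 71.0). Orc1, its largest subunit, and Cdc6, the ATPase that works with Cdt1, were under the level filter, at 11.1 to 16.4 and 6.999 to 10.8, and are not resolved from dim signal.

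The MCM genes encode the ring of the replicative helicase. Mcm5 had intensities of 126, 64.1, 87.0 and 110. Mcm6 had 326, 174, 296 and 242, and Mcm7 had 641, 380, 496 and 556. For Mcm7 the probe set with no cross-hybridising design differed by -0.32 in the first comparison, under 1.5-fold, against -0.75 for the probe set used, while another pair differed by -0.89 and -0.92. All 3 genes were lowest in control 4OHT, and Mcm6 differed from the other 2 in being lower in CKO 4OHT than in CKO EtOH. Mcm4 had 119, 74.5, 99.9 and 111, in the same order as Mcm5. Its second probe set showed larger differences than the first, -1.02 in the first comparison and 0.77 in the third, against -0.67 and 0.15. Mcm2 and Mcm3 were within 1.5-fold in all 4 comparisons by the probe sets used. Another Mcm2 probe set differed by -0.76 in the first comparison and by 0.34 in the fourth, where the probe set used gave -0.35 and -0.005. For Mcm3 another measured probe set, which also allows cross-hybridisation, differed by -0.93, 0.62, 1.12 and -0.43 in the first, the third, the fourth and the second comparison. In the same order, a further one differed by -0.52, 0.57, 0.71 and -0.38. The remaining measured one differed by -0.11, 0.18, 0.22 and -0.07, so the size for this gene depends on the probe set. The probe sets used for Mcm2, Mcm3 and Mcm7 are of a design that allows cross-hybridisation.

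Cdc45 and Gins1 belong to the active helicase with the MCM ring. Gins1 had intensities of 68.2, 34.2, 48.9 and 45.3, lowest in control 4OHT and about equal in both CKO arrays. Cdc45, at 22.4 to 28.8, was near the level filter and within 1.5-fold in all 4 comparisons.

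The polymerase genes held the largest difference of the set between the control arrays. Pola1, the catalytic subunit of the primase-associated polymerase alpha, had intensities of 32.2, 13.4, 19.98 and 20.7. Pole2, a subunit of the leading-strand polymerase epsilon, had 106, 48.1, 73.6 and 76.4. In both genes the CKO arrays lay between the control arrays and hardly differed from each other (0.05 each). Pola1 was under the level filter in control 4OHT and CKO EtOH and passed it through the other arrays, so its folds are imprecise. Prim1, the catalytic primase subunit, had 124, 74.8, 103 and 112, and Pole, the catalytic subunit of polymerase epsilon, had 63.9, 42.2, 45.3 and 55.3. Pola2, Prim2, Pold1 and Pold2, further subunits of polymerase alpha-primase and polymerase delta, were within 1.5-fold in all 4 comparisons, from -0.52 for Prim2 in the first to 0.46 for Pola2 in the fourth. A second Pold1 probe set, which allows cross-hybridisation, differed by -0.75 and -0.70 in the first and second comparisons.

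Among the clamp and clamp loader genes, Rfc3 and Rfc4, loader subunits, were low on both 4OHT arrays. Rfc3 had intensities of 48.1, 28.1, 43.6 and 30.7. Rfc4 had 77.8, 48.7, 61.5 and 52.3. Both 4OHT arrays were below both EtOH arrays for these 2 genes. The same held, by margins that were small in several of them, for Mcm2, Mcm6, Gins1, Prim2, Rfc5, Rpa3 and Chaf1b. How often this arrangement occurs among all genes was not counted, so it is not read as a trait of the set. Pcna, the sliding clamp (845 to 1083), stayed within 1.5-fold in all 4 comparisons. So did Rfc1, Rfc2 and Rfc5, although another Rfc1 probe set differed by -1.20 in the first comparison and 0.90 in the fourth.

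Rpa1, the large subunit of the single-strand binding protein, had intensities of 480, 312, 331 and 404. Its other probe set was nearly level (175, 153, 160 and 171), with -0.19 in the first comparison against -0.62, and the mean of both gave -0.41, under 1.5-fold. Rpa2, the middle subunit, had 52.2, 40.4, 47.8 and 60.8, and was highest in CKO 4OHT. The small subunit Rpa3 ranged from 58.2 to 72.3. Of the genes that finish Okazaki fragments, Lig1, the replicative DNA ligase, had 142, 78.0, 92.7 and 102. Fen1, the flap endonuclease, had 363, 263, 269 and 365 by a probe set that allows cross-hybridisation and stayed within 1.5-fold. Its other probe set had 81.8, 43.2, 56.4 and 109, with differences of -0.92 in the first comparison and 1.34 in the fourth, and both probe sets were highest in CKO 4OHT.

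The genes of nucleotide supply spread widely in the comparisons of CKO 4OHT, from -0.37 to 1.25 against control 4OHT. Tk1, the S phase thymidine kinase, had intensities of 74.2, 37.4, 40.7 and 88.9 by its only probe set. Rrm2, the small subunit of ribonucleotide reductase, had 366, 227, 241 and 436. In both genes control 4OHT and CKO EtOH were close together and CKO 4OHT was above control EtOH. The 2 other Rrm2 probe sets differed by 0.95 and 1.08 in the third comparison, against 0.86 for the probe set used. In the first comparison they differed by -0.29 and -0.65, against -0.69, and in the second by -0.19 and -0.40, against -0.61. The probe set used for Rrm2 is of the design that allows cross-hybridisation, and its call in the first comparison is lost without such probe sets (-0.29) or with the mean of all (-0.54). Rrm1, the large subunit of the same enzyme, had 407, 399, 368 and 310 and went the other way, with CKO 4OHT lowest and no comparison past 1.5-fold. Dut, which removes dUTP, had 33.8, 24.0, 31.5 and 39.9. Tyms, thymidylate synthase, was at 4.76 to 5.42 by the brightest of 3 probe sets that name it alone. A probe set that names Tyms together with the pseudogene Tyms-ps had 98.9, 91.9, 86.5 and 113, so the gene is not shown to be silent, and it was left out of the counts.

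**Figure D3:**
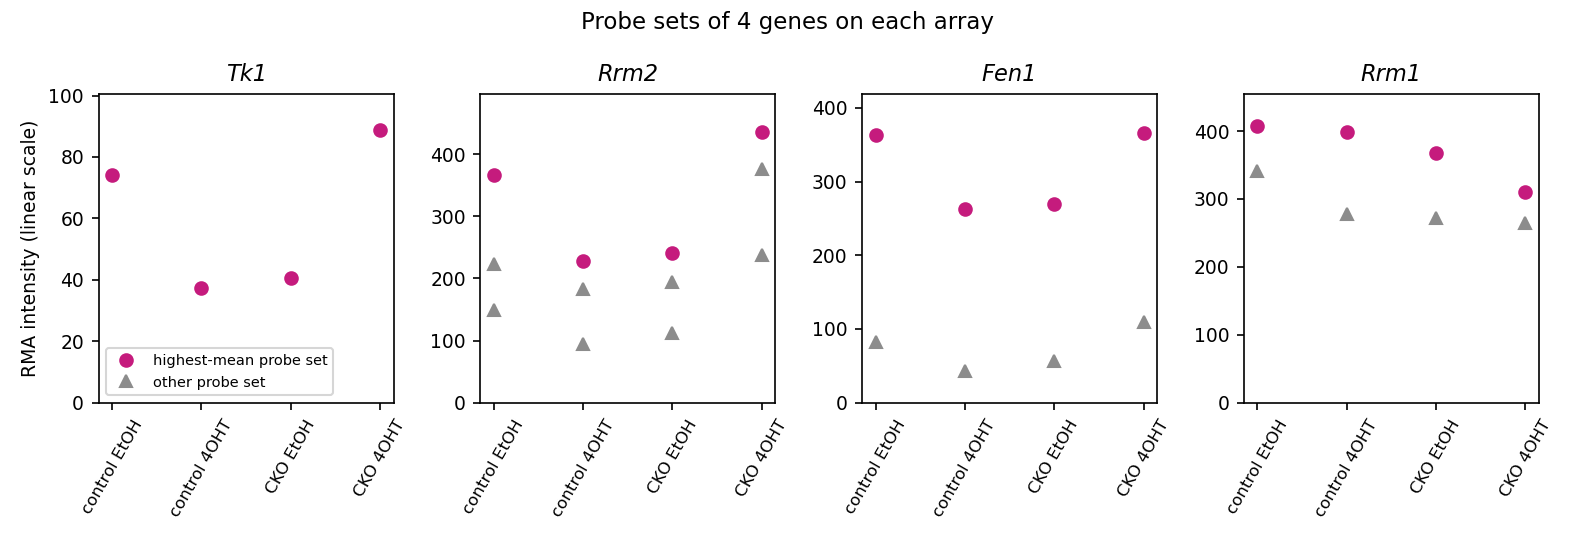
RMA intensity on a linear scale (y axis) on each array (x axis) for every probe set past the level filter of Tk1, Rrm2, Fen1 and Rrm1, with the probe set used in magenta and others in grey. CKO 4OHT is the highest array for the only probe set of Tk1 and for all of Rrm2 and Fen1, and the lowest for both of Rrm1. For the Fen1 probe set used it is highest by 365 against 363 in control EtOH.

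The last group joins chromatin and checkpoint genes of S phase. Hells, a chromatin remodeller needed for DNA methylation, had intensities of 29.1, 12.4, 25.1 and 26.6. Uhrf1, which brings the maintenance methyltransferase to new DNA, had 47.7, 28.6, 35.03 and 43.0. Chek1, the kinase of the replication checkpoint, had 45.9, 25.4, 26.3 and 28.3. Hells was low on the control 4OHT array alone, where it was under the level filter, whereas Chek1 was high on the control EtOH array alone. The Chek1 value rests on 1 probe set that allows cross-hybridisation, and the 3 others were under the level filter. Chaf1b, a histone chaperone subunit, ranged from 51.8 to 63.4.

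The 33 genes past the filter that had a promoter window were split by the E2F motif as a description. The 10 with the motif had a median of -0.94 in control 4OHT against control EtOH, and 8 of them were at least 1.5-fold lower (3.91% of all genes). The 23 without it had a median of -0.46, and 9 were lower by that fold. In CKO 4OHT against control 4OHT the medians were 0.57 and 0.37. In CKO 4OHT against CKO EtOH they were 0.12 and 0.17, and Tk1 and Rrm2, the 2 genes past 1.5-fold there, were both without the motif. The ranges of the groups overlapped in each comparison.

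Related genes outside the set were read from lists. Of 38 other replication genes 29 were on the array and 23 passed the filter. All 23 were lower in control 4OHT than in control EtOH, 3 of them at least 1.5-fold (3.91% of all genes), with a median of -0.35. In CKO EtOH against control EtOH, 20 were lower (56.2% of all genes) and 3 higher by any amount. The median of the 23 was -0.19 there. Their median was 0.06 in CKO 4OHT against CKO EtOH (0 higher, 2 lower) and 0.17 in CKO 4OHT against control 4OHT (2 higher, 1 lower). These counts were near the shares of all genes, 5.71% higher and 5.48% lower in the former and 6.69% and 6.07% in the latter. Topbp1, which activates the helicase and the checkpoint, had 94.4, 57.6, 78.4 and 93.4, and Wdhd1, which ties polymerase alpha to the helicase, had 28.9, 19.2, 23.5 and 33.0. Both followed the order of the set. Top2b, a topoisomerase, had 209, 172, 157 and 95.3 and did not. Neither did its relative Top2a (291, 217, 245 and 166) nor Asf1a, a histone chaperone (280, 212, 259 and 160). All of these were lowest in CKO 4OHT, and further genes of this list departed from the order as well.

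Other nucleotide synthesis genes split. Of 26 past the filter, 5 were higher and 2 lower in CKO 4OHT against CKO EtOH, and 7 were higher and 1 lower against control 4OHT, with medians of 0.01 and 0.16. Of all genes 5.71% were higher and 5.48% lower in the former comparison, and 6.69% and 6.07% in the latter. Cad, which starts pyrimidine synthesis, had intensities of 62.8, 39.6, 40.1 and 96.8, the pattern of Tk1. Its probe set allows cross-hybridisation, as does that of Ppat below. Against control 4OHT, 3 purine synthesis enzymes were at least 1.5-fold higher, Ppat (1.02), Gart (1.01) and Adsl (0.60). So were Dtymk, thymidylate kinase (0.93), Nme1, a nucleoside diphosphate kinase (0.77), and Tk2, the mitochondrial thymidine kinase. Tk2 had 10.7, 14.4, 13.1 and 23.2 and passed the level filter only through the CKO 4OHT array, so it had to be highest there and its fold is not resolved from dim signal. Both counts of higher genes above include Tk2, whose direction the filter fixed in advance. Samhd1, which breaks down deoxynucleotides, had 55.7, 94.5, 71.1 and 46.0, and differed by -1.04 against control 4OHT.

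Regulators of S phase entry followed in part. Of 22 past the filter, 7 were higher and 1 lower in CKO 4OHT against control 4OHT (6.69% and 6.07% of all genes), with a median of 0.28. Ccnd1, cyclin D1, had intensities of 250, 154, 215 and 521, and Rbl1, a relative of the retinoblastoma protein, had 91.7, 54.3, 72.3 and 81.8. Myc (1.22) and the cell cycle inhibitor Cdkn1a (0.61) were higher in that comparison as well, and Ccna2, cyclin A2, was lower (-0.71).

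Mitosis genes had other values than the replication genes on the CKO 4OHT array. Of 26 past the filter, 0 were higher and 6 lower in CKO 4OHT against control 4OHT, and 0 were higher and 7 lower against CKO EtOH, with medians of -0.35 and -0.36, where those of the replication genes were 0.41 and 0.14. Of all genes 6.07% and 5.48% were lower by 1.5-fold in these comparisons. In control 4OHT against control EtOH both lists had medians below 0, -0.25 for mitosis. In CKO EtOH against control EtOH, 24 mitosis genes were lower (56.2% of all genes) and 2 higher by any amount. Their median there was -0.17, against -0.34 for the replication genes. Mki67, a marker of dividing cells, had intensities of 281, 230, 254 and 126, Ccnb2, cyclin B2, had 350, 333, 330 and 190, and Cenpf, a kinetochore protein, had 81.8, 66.5, 68.7 and 39.4. For these 3 genes CKO 4OHT was the lowest array and the other 3 arrays were close together. Cdca3 (-0.66) and Bub1b (-0.68) were also lower against control 4OHT, and Ndc80 was lower in both 4OHT arrays (40.96, 26.8, 36.0 and 23.5).

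**Figure D4:**
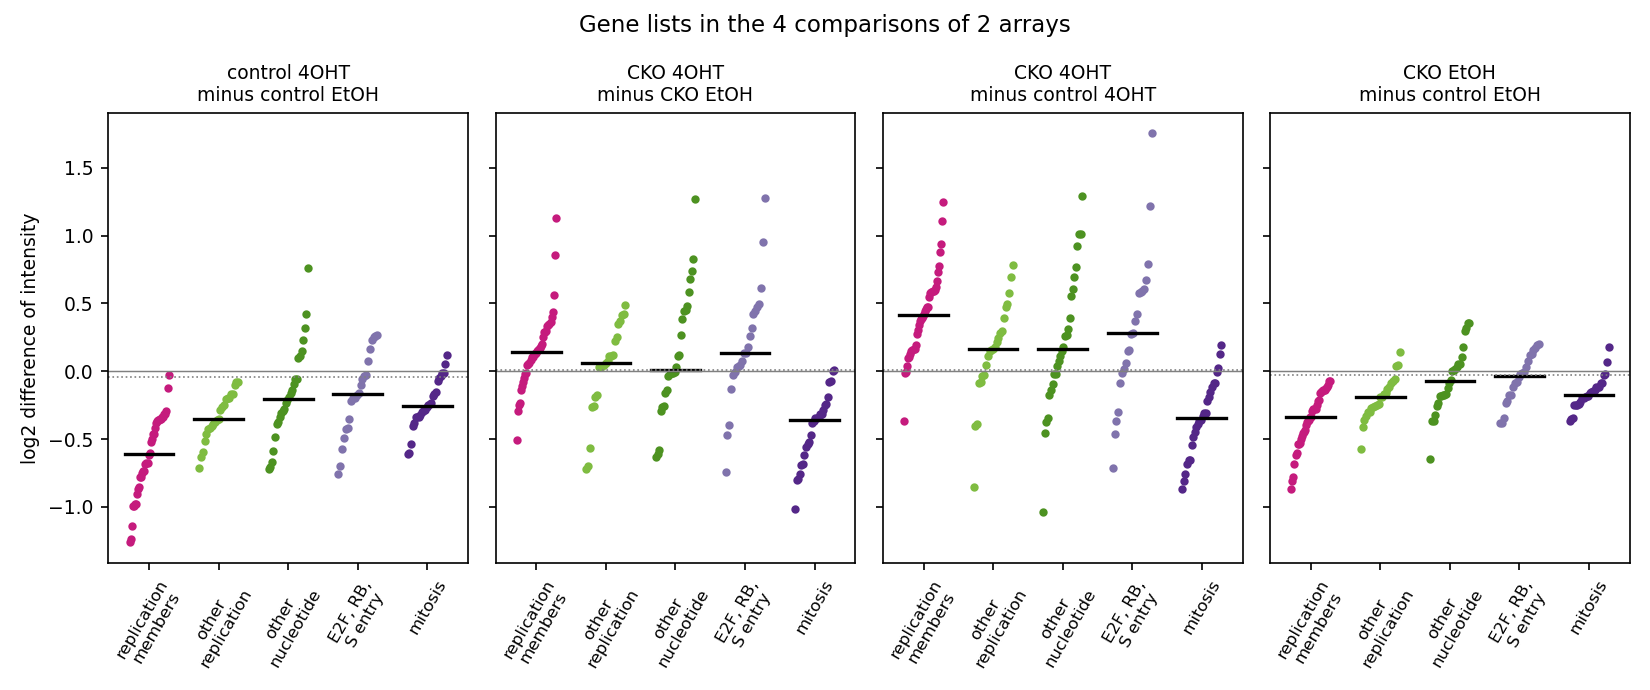
Log2 differences (y axis) of the genes of 5 lists past the level filter in the 4 comparisons of 2 arrays, 1 point per gene, ordered by value within a list, with the list's median as a black bar and the median of all genes as a dotted line. In CKO 4OHT against control 4OHT the replication genes have a median of 0.41 and the mitosis genes one of -0.35.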

How the data were processed

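RNA of 4 cultures was measured on 4 Affymetrix Mouse Expression Array 430A arrays, 1 in each group, which limits the precision of every value. The deposited values are intensities on a linear scale (22626 probe sets), made by RMA per the submitters' processing notes; the version was not given in the sources used here. This method corrects the background and makes arrays alike, so a shift of most transcripts would be lost and differences of dim probe sets are compressed. Array medians were between 19.95 and 20.22.

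Log2 was taken with no pseudocount (Python 3.11.15, pandas 2.3.3). Names came from the platform annotation; 20380 probe sets named 1 gene. No test was run. Counts used 1.5-fold, and the counting was tested on simulated data. Values are given for each member at least 1.5-fold different in a comparison. Of other lists, they are given for up to 8 genes that were so in 2 or more comparisons, and for some further genes. Counts were redone under 8 alternatives: other probe set rules, level filters, a 2-fold threshold, scalings and a pseudocount. Members and lists were chosen with earlier results of these data known.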

Additional observations from a re-analysis of the deposited data

Results flagged for a closer look

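Among the results in which the drug's log2 difference had opposite signs in control and CKO cells, 3 were flagged. Each rests on 1 array per group, and the difference between control and CKO cells was not tested. Signs below 0 in control and above 0 in CKO cells were found for 28 of the 38 genes (28.4% of all genes). The median over the 38 replication genes was -0.61 in control cells and 0.14 in CKO cells, and the median of the per-gene difference of differences was 0.77. Tk1 differed by -0.99 in control cells and 1.13 in CKO cells, 2.12 apart. Rrm2 differed by -0.69 and 0.86, 1.54 apart. These 2 genes were the ones past 1.5-fold in opposite directions by the probe sets used, and the share of all genes that were so was not counted. Other measured probe sets of Fen1 (-0.92 and 0.95), Mcm4 (-1.02 and 0.77) and Mcm3 (-0.93 and 0.62) were so as well. Those of Mcm4 and Mcm3 allow cross-hybridisation, and further Mcm3 probe sets were under 1.5-fold. For Rrm2 the difference in control cells was under 1.5-fold with the mean of all probe sets (-0.54) and without probe sets that allow cross-hybridisation (-0.29).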

How the results depend on the processing

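Under the 8 alternatives, no median of the set changed sign. Of the 63 gene and comparison pairs past 1.5-fold, recomputed under the 7 alternatives other than the 2-fold threshold, 441 values resulted, of which 64 kept their sign but were under 1.5-fold and 1 changed sign: Chek1 in CKO EtOH against control EtOH was 0.047 without probe sets that allow cross-hybridisation, where a dim probe set takes its place. At 2-fold the counts were 3 lower in control 4OHT against control EtOH, 1 higher in CKO 4OHT against CKO EtOH, 2 higher in CKO 4OHT against control 4OHT, 0 lower in CKO EtOH against control EtOH and 10 for the difference of the drug differences. The count in CKO EtOH against control EtOH was 3 with the mean of all probe sets and 2 with a pseudocount of 16. The count in CKO 4OHT against control 4OHT was 7 with median centring and 5 with the pseudocount. The median for control 4OHT against control EtOH was -0.49 with the pseudocount, and that of the difference of the drug differences was 0.67 with the mean of all probe sets and 0.58 with the pseudocount. A pseudocount shrinks differences of dim genes by construction; the cause of the other moves was not tested. No paired analysis was possible because each group has 1 array. Signal over background is not known for these arrays, and values under about 20.04 intensity units, such as those of Hells and Pola1 in control 4OHT, are least certain.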

Other observations

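The drug's difference in control cells and that in CKO cells share no array. Across the 38 replication genes the Pearson correlation of these differences was -0.12 and the Spearman correlation -0.07, as a description of genes that share the 4 arrays and are not independent. Over all 7463 genes past the level filter the same correlations were 0.03 and 0.04.

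Further probe sets of the set's genes gave 24 readings past the level filter, for 18 genes. All 24 were below 0 in control 4OHT against control EtOH, with a median of -0.68, and 22 were below 0 in CKO EtOH against control EtOH. In CKO 4OHT against control 4OHT, 23 of 24 were above 0, with a median of 0.47, the exception being a probe set of Rrm1. In CKO 4OHT against CKO EtOH, 17 were above 0 and 7 below.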
